A study of Homo sapiens with 4 samples.

Results

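The 9 genes described here, EPB41L3, NAP1L3, SET, GPC6, SPON1, CR615016, PHC2, ITPR3 and CTNND2, had transcripts that lay on opposite sides of the control in a pair of GATA1 knockdown clones of the Meg-01 cell line. All non-control probes that the array's design names for them were taken, which gave 14 probes of 41000 on the array and 9 of its 30499 gene names. The genes were chosen on the log2 ratios of clone over control from these same arrays, so their opposite direction is a description and was not tested.

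Meg-01 is an established human megakaryoblastic leukaemia line. The clones, GATA1 5-13 and GATA1 4-14, carry a GATA1 shRNA delivered by lentivirus under puromycin selection, and each grew out of a single soft agar colony. The control, GATA1 Neg, is a pool of cells that received a control shRNA in the same kind of virus, so that what belongs to 1 colony and what follows from the knockdown cannot be told apart. RNA of a clone was hybridized with RNA of GATA1 Neg on 4 two-colour Agilent arrays, 2 for each clone, with the clone RNA in the red channel on the first and in the green channel on the second. Meg-01 is given as the source by the labels, although their extraction field speaks of CMK clones, a different megakaryoblastic line. The labels do not say whether the 2 arrays of a clone carried 1 RNA extract or RNA of separate cultures. They were taken as 1 replicate, and the errors given below are the spread between these 2 arrays, which may be technical.

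GATA1, which binds GATA motifs through its zinc fingers, is a transcription factor needed for the maturation of erythroid cells and megakaryocytes. The 9 genes belong to no single pathway. EPB41L3 ties membrane proteins to the spectrin and actin skeleton, NAP1L3 and SET belong to a family of histone chaperones, and PHC2 is a subunit of polycomb repressive complex 1, which keeps genes silent. GPC6 is a heparan sulphate proteoglycan held at the cell surface by a lipid anchor, SPON1 is a secreted matrix protein, CTNND2 is a catenin that binds the tail of cadherins, and ITPR3 is a calcium release channel of the endoplasmic reticulum. CR615016 is the accession of a full-length cDNA clone, for which the array gives no gene symbol.

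The arrays carried 43376 non-control spots each. A spot was well above background, as Feature Extraction judged it, in 61.6 to 66.4% of cases in a channel, 135 to 152 spots per array had an outlier mark, and 0 were saturated. Over all probes, the log2 ratios of the 2 arrays correlated at 0.806 within GATA1 5-13 and 0.641 within GATA1 4-14. Between the clones the correlation was 0.387 and 0.409 for arrays with the same dye orientation and 0.171 and 0.216 for arrays with different ones. Of the 11 megakaryocyte markers listed, 10 were on the array and 8 of these were well above background in GATA1 Neg on all 4 arrays, without PF4 and VWF. The same held for 2 of 5 lymphoid markers, CD3E and CD79A, and for 1 of 5 monocyte and granulocyte markers, LYZ. GATA1 itself, the target of the shRNA, had log2 ratios of -0.21 and -0.34 in GATA1 5-13 and of -0.43 and -0.58 in GATA1 4-14. All 4 arrays put GATA1 below GATA1 Neg, with a mean of -0.39 over the clones and an adjusted p of 0.605 by limma.

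A probe was called opposite where the clone means had different signs, each was at least 0.5 in size on the log2 scale, and both arrays of a clone had its sign. By this rule 7 of the 14 probes, from 6 of the 9 genes, were opposite. Over the whole array the rule took 89 of 40974 probes with a value on all arrays, or 0.217%. As the genes were picked for this, nothing is read from the difference between these shares. EPB41L3 was higher in GATA1 5-13 and lower in GATA1 4-14, a direction that 33 probes (0.0805%) had. NAP1L3, SET, GPC6, SPON1 and CR615016 were lower in GATA1 5-13 and higher in GATA1 4-14, as were 56 probes (0.137%). With sign alone counted, 12 of the 14 probes were opposite on all 4 arrays, against 6512 probes or 15.9% of the array. The remaining 2, a probe for SET and a probe for PHC2, are described below with their genes.

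**Figure D1:**
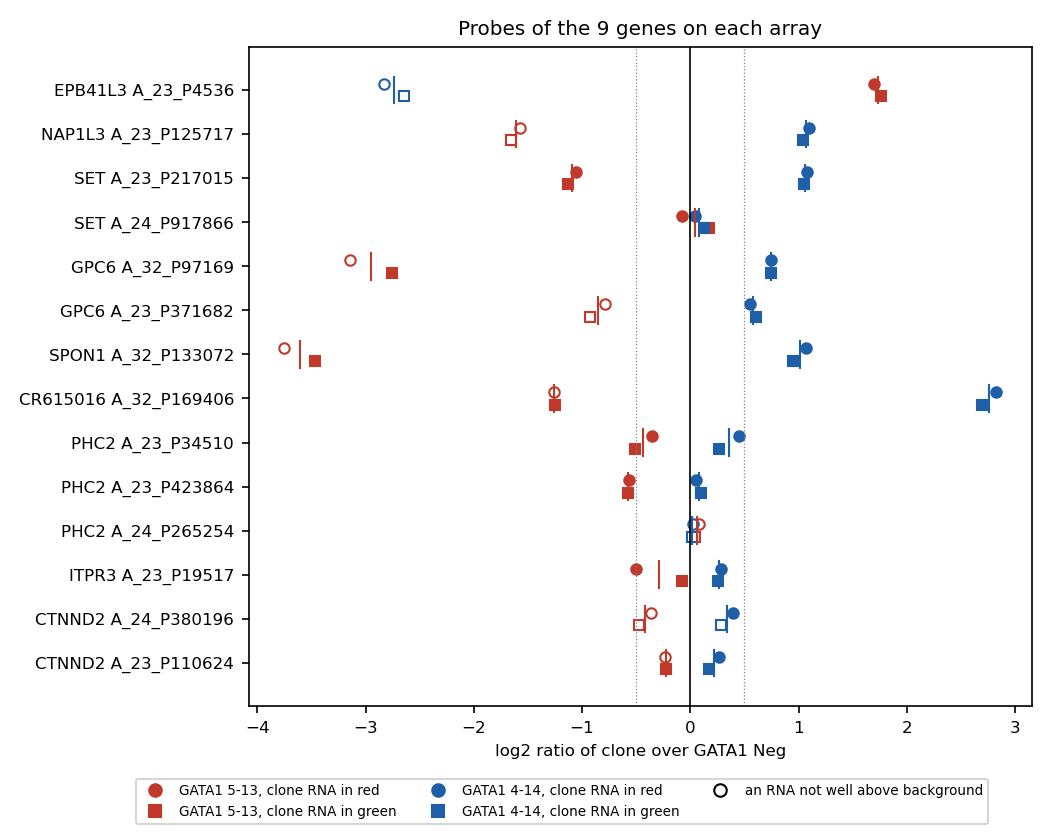
Log2 ratio of clone over GATA1 Neg (horizontal axis) for the 14 probes of the 9 genes (rows), with GATA1 5-13 in red and GATA1 4-14 in blue, circles for arrays with the clone RNA in the red channel, squares for the dye-swapped arrays and short bars for the clone means. Open symbols mark an RNA not well above background, and dotted lines mark 0.5 in either direction. In 12 rows the red and blue symbols lie on different sides of 0 on all 4 arrays, and EPB41L3 is the row with GATA1 5-13 on the right and GATA1 4-14 far to the left.

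The 250 bases before a RefSeq transcription start (GRCh38.p14) were read for these genes, because GATA1 binds GATA motifs and was the target of the shRNA. Windows were at hand for 7 of the 9 genes, 16 in all, and they were searched on both strands for the motif AGATAA as well as for TGATAA, then for AGATAG as well as for TGATAG. A match was found in 2 of the 16 windows, 1 of the 4 of EPB41L3 and 1 of the 2 of PHC2, and in 7840 of 35116 windows of all genes, or 22.3%. These 2 windows are shown with the single window of NAP1L3, which had no match. NAP1L3 had the other direction from EPB41L3. PHC2, with a match, had the signs of NAP1L3 in its 2 probes above background. Whether a match goes with a direction was not tested. Capitals mark the motif, which in PHC2 is TGATAG read on the other strand. A match is not a binding site, and its absence says only that these letters are not in the window. The EPB41L3 window is chr18:5521380-5521629, that of PHC2 is chr1:33349900-33350149 and that of NAP1L3 is chrX:93673579-93673828, all on the minus strand and written 5′ to 3′ towards the gene.
EPB41L3: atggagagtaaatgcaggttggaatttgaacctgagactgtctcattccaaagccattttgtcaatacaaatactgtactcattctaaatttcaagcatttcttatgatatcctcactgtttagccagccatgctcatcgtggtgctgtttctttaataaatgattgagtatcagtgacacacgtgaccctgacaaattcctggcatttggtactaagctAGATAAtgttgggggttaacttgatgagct
PHC2: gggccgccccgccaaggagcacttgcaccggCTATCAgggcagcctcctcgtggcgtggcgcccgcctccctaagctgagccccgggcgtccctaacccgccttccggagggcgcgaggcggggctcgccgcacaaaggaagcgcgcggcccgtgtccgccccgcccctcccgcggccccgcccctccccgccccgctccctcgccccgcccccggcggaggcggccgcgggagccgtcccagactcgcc
NAP1L3: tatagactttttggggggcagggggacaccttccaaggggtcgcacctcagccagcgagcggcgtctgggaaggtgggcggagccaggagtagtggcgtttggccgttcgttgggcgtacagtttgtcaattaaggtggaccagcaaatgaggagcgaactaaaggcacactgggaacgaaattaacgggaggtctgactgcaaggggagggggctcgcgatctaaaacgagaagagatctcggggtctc

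EPB41L3, the membrane skeleton linker, ranked first of the 33 probes in its direction by the smaller of its clone ratios. Its probe, A_23_P4536 (hg18 chr18:5383392-5383451), gave log2 ratios of 1.70 and 1.76 for GATA1 5-13, against -2.83 and -2.64 for GATA1 4-14. The clone means were 1.73 ± 0.04 and -2.74 ± 0.13 (SD over 2 arrays). Within the red channel, where dye is the same, the spot minus its local background measured 3560 for GATA1 5-13, 978 and 937 for GATA1 Neg and 60.0 for GATA1 4-14. The control lay between the clones. In these bulk RNAs, fewer cells with the transcript and less of it per cell cannot be told apart. The GATA1 4-14 signal was not well above background on either array. EPB41L3 was 3.32-fold above the control in GATA1 5-13, and in GATA1 4-14 at least 6.47-fold below it after background correction. Without background correction the log2 ratio in GATA1 4-14 was -1.39, a smaller difference than this bound, and that in GATA1 5-13 was 1.44.

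NAP1L3, a histone chaperone of the nucleosome assembly family, had the reverse order. Its probe, A_23_P125717 (chrX:92813153-92813212), gave -1.57 and -1.66 in GATA1 5-13 and 1.09 and 1.05 in GATA1 4-14. The red spot measured 57.6 for GATA1 5-13, 384 and 379 for GATA1 Neg and 825 for GATA1 4-14. The arrays of a clone were close together, 0.09 apart at most, while the clones lay 2.68 apart. GATA1 5-13 was not well above background on either array, so NAP1L3 was at least 2.91-fold lower there after background correction, and 2.10-fold higher in GATA1 4-14. Without background correction the log2 ratios were -0.65 and 0.67, the first again smaller than the bound.

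SET, a histone chaperone that also inhibits protein phosphatase 2A and is known from a fusion with NUP214 in leukaemia, had 2 probes that differed. The first, A_23_P217015, has a given position of chr9:130495062-130495777, a span of 716 bases. It gave -1.06 and -1.13 in GATA1 5-13 and 1.08 and 1.05 in GATA1 4-14. Its red spot measured 760 for GATA1 5-13, 1703 and 1771 for GATA1 Neg and 3684 for GATA1 4-14, all well above background. Of the 7 opposite probes this was the one with every RNA above background on every array, at 0.468 and 2.09 times the control. The second SET probe, A_24_P917866 (chr9:130497563-130497622), spans 60 bases and gave -0.08, 0.17, 0.04 and 0.13 in the same order. Its spots measured 14369.7 to 35379.3 after subtraction of the background, and the clones lay 0.04 apart, less than the 0.25 between the arrays of GATA1 5-13. The 2 probes of SET therefore measured different differences, and SET is uncertain as a gene. The array gives no sequence for either. Near-identical copies of a gene can share signal, but why the probes differed was not tested.

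GPC6, the lipid-anchored proteoglycan, had the same direction in both of its probes. A_32_P97169 (chr13:93857335-93857394) gave -3.15 and -2.76 in GATA1 5-13 and 0.74 and 0.75 in GATA1 4-14. Its red spot measured 50.9 for GATA1 5-13, 1106 and 1062 for GATA1 Neg and 1875 for GATA1 4-14, with the GATA1 5-13 signal above background on 1 of 2 arrays. A_23_P371682 (chr13:93848796-93848855), the other probe, gave -0.79, -0.93, 0.55 and 0.60. There the GATA1 5-13 RNA was not above background, which makes GPC6 at least 1.33-fold lower by this probe, against a 7.74-fold lower mean by the first. In GATA1 4-14 the probes were closer, at 1.68 and 1.49 times the control. The red spot of the second probe measured 13.2 for GATA1 5-13, 111 and 101 for GATA1 Neg and 206 for GATA1 4-14. Without background correction this probe gave -0.23 and 0.20 and was no longer opposite by the rule, while the first gave -1.55 and 0.59.

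SPON1, the secreted matrix protein, had the largest distance between the clones of the 14 probes. A_32_P133072 (chr11:14245756-14245815) gave -3.75 and -3.47 in GATA1 5-13 and 1.07 and 0.95 in GATA1 4-14. The red spot measured 90.3 for GATA1 5-13, 2255 and 2271 for GATA1 Neg and 4666 for GATA1 4-14. SPON1 was thus clearly measured in the control pool and in GATA1 4-14, at 2.02 times the control, and near the background in GATA1 5-13, where 1 of 2 arrays passed. The mean there was 12.2-fold lower, and its log2 ratio of -3.61 moved between -4.76 and -2.24 over the settings tried. The clones lay 4.62 apart, and the arrays of a clone at most 0.28.

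CR615016, the cDNA clone without a symbol, lies at chr12:52812598-52812657 by its probe A_32_P169406. It gave -1.26 and -1.25 in GATA1 5-13 and 2.83 and 2.70 in GATA1 4-14, and ranked first of the 56 probes with this direction by the smaller of its clone ratios. Its red spot measured 77.1 for GATA1 5-13, 303 and 433 for GATA1 Neg and 3136 for GATA1 4-14. The high value in GATA1 4-14 set this probe apart from the other members of the same direction, at 6.79 times the control against 1.49 to 2.10 for the others called opposite. In GATA1 5-13 it was above background on 1 of 2 arrays, and without background correction its ratio there was -0.4997, so that it just missed the size of 0.5 that the rule asks.

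**Figure D2:**
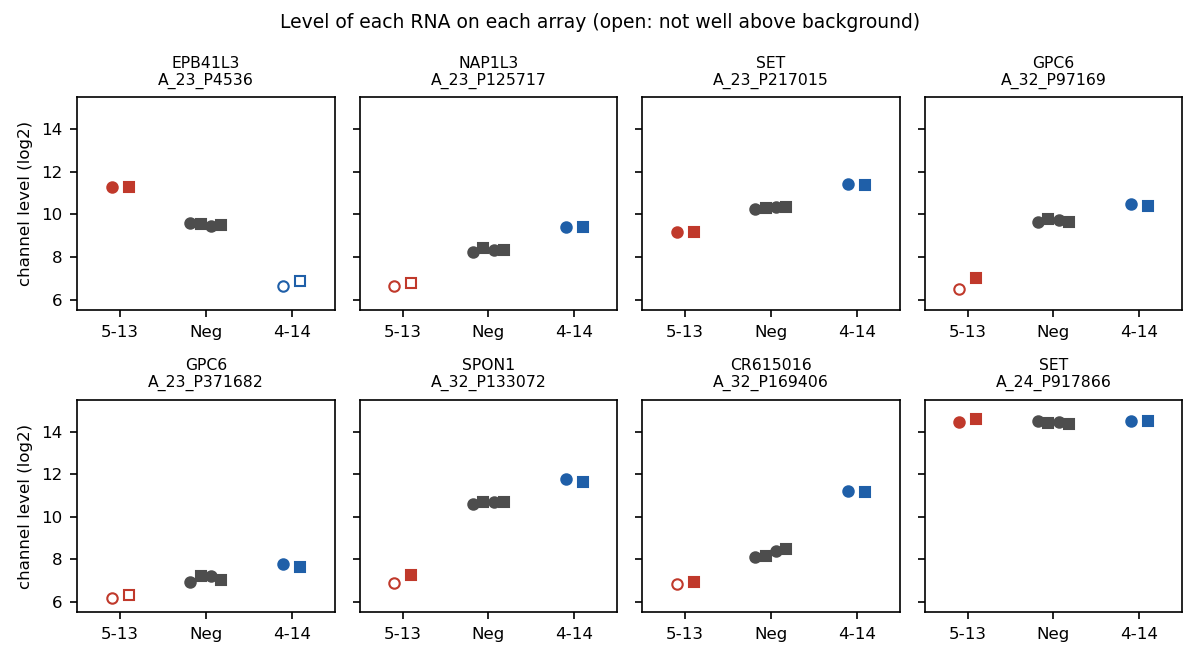
Level of each RNA on the log2 scale after normalization (vertical axis) for the 7 opposite probes and the second SET probe, with GATA1 5-13, GATA1 Neg and GATA1 4-14 side by side, circles for the arrays with the clone RNA in red and squares for the dye-swapped ones. GATA1 Neg has 4 points because it was on all 4 arrays, and open symbols are not well above background. GATA1 Neg lies between the clones in the 7 opposite probes, and in the second SET probe all points lie at one level, from 14.36 to 14.58.

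GATA1 Neg served as the partner of both clones, so a shift between arrays of its level alone would enter the ratios. Over the 4 arrays the normalized log2 level of GATA1 Neg varied by 0.09 to 0.38 for the 7 opposite probes, the most for CR615016, from 8.10 on an array of GATA1 5-13 to 8.48 on an array of GATA1 4-14. The distances between the clones were 1.43 to 4.62 for these 7, which were chosen on such distances. Among the other member probes, the level varied by more than the distance for ITPR3 (0.74 against 0.56). The same held for the second SET probe (0.15 against 0.04) and the dim PHC2 probe (0.56 against 0.04), and not for the rest. For ITPR3 and the dim PHC2 probe the level of GATA1 5-13 also differed between its arrays, from 7.51 to 8.60 and from 6.21 to 6.73. Whether shifts of GATA1 Neg entered the ratios was not tested. Over all probes the SD of the level of GATA1 Neg had a median of 0.0647. The levels of different probes are not compared, since probes differ in how brightly they bind.

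The other 3 genes had opposite signs without reaching 0.5 in both clones. PHC2, the polycomb subunit, had 3 probes. A_23_P34510 (chr1:33567082-33567141) gave -0.35 and -0.51 in GATA1 5-13 and 0.45 and 0.26 in GATA1 4-14. The second, A_23_P423864 (chr1:33561987-33562046) gave -0.57 and -0.58 in GATA1 5-13 and 0.06 and 0.10 in GATA1 4-14, so PHC2 was 0.673 times the control in the first clone and 1.06 times in the second by this probe. Both probes had GATA1 5-13 below GATA1 4-14, by 0.79 and 0.65, and they differed in whether GATA1 4-14 exceeded the control by more than a few percent. The third probe, A_24_P265254, spans 1858 bases (chr1:33606792-33608649) and had no RNA well above background on any array, so it gives no level and no direction.

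ITPR3, the calcium channel, had the widest gap between the arrays of a clone. A_23_P19517 (chr6:33771750-33771809) gave -0.50 and -0.08 in GATA1 5-13 and 0.28 and 0.25 in GATA1 4-14. The arrays of GATA1 5-13 lay 0.42 apart, against 0.56 between the clone means. On the array with GATA1 5-13 in green the level of GATA1 Neg was 8.67, against 7.94 to 8.01 on the remaining 3. The level of GATA1 5-13 was higher on that array as well, at 8.60 against 7.51 on its other array. All RNAs were above background, and the signs were the same on the arrays of each clone.

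CTNND2, the cadherin-binding catenin, had small differences of one direction in both probes. A_24_P380196 (chr5:11025810-11025869) gave -0.36 and -0.47 in GATA1 5-13 and 0.40 and 0.28 in GATA1 4-14. The signal of GATA1 5-13 was not well above background and that of GATA1 Neg passed on 1 array of each clone. As GATA1 Neg was itself dim on an array of GATA1 5-13, no bound on the fold is given for this probe. Its log2 ratio in GATA1 5-13 ranged from -1.60 to -0.12 over the settings tried. A_23_P110624 (chr5:11026084-11026143) gave -0.23, -0.22, 0.26 and 0.17. The red spots of both probes measured 40.1 to 156 over the RNAs.

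Over the 12 probes with opposite signs, the distance between the clones was 1.32 to 30.9 times the largest gap between the arrays of a clone, lowest for ITPR3 and highest for CR615016. It was 0.143 times this gap for the second SET probe and 1.04 times for the dim PHC2 probe. As the members were chosen on these ratios, this is a description and not a test. Over all probes, the 50th percentile of the distance between the clones was 0.10 and the 99th percentile was 1.08. The gap between the arrays of a clone had a median of 0.103 over all probes in either clone.

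**Figure D3:**
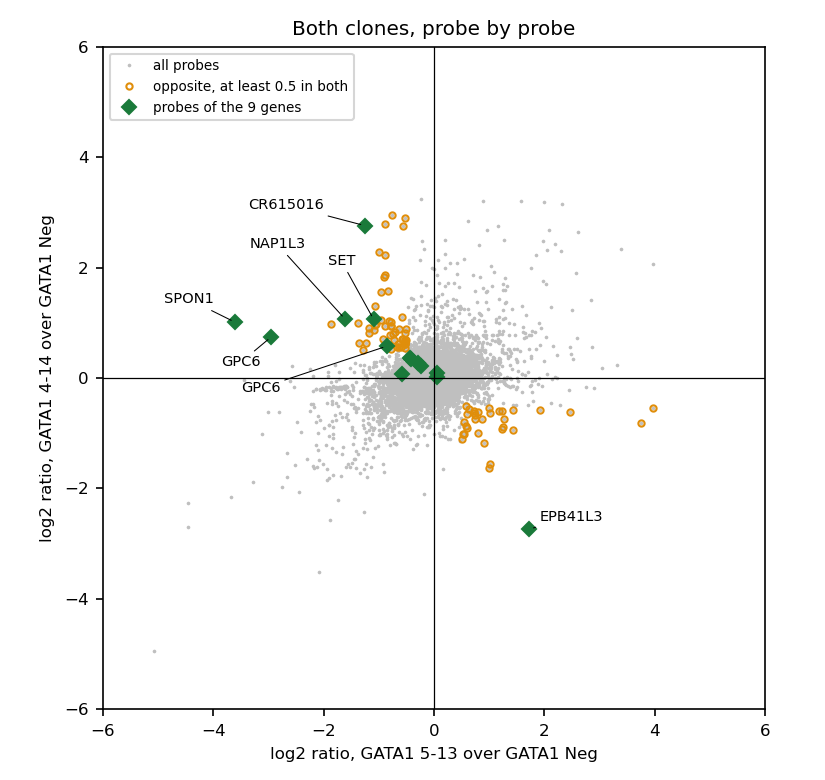
Log2 ratio over GATA1 Neg in GATA1 5-13 (horizontal axis) and GATA1 4-14 (vertical axis) for all 40974 probes in grey, with the 89 opposite probes ringed in orange and the 14 probes of the 9 genes as green diamonds. The named diamonds are the 7 opposite ones; EPB41L3 is alone at the lower right, and the other 6 lie at the upper left.

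The ratios of both clones have GATA1 Neg as their denominator, so the split of signs is given as a count only. Of 510 probes (1.24%) at least 0.5 in size in both clones, 421 had 1 sign and 89 were opposite. Of these 89, 86 had the brighter RNA well above background on all 4 arrays. With at least 1 asked of both clones, 8 probes (0.0195%) were left, of which 5 belong to EPB41L3, CR615016, NAP1L3, SET and SPON1 and 3 to CD24, AK023660 and ZNF447. The 89 probes had 80 names. For 22 of these the array has more than 1 probe, and for 6 every probe was opposite, GPC6 among them. No probe on the array passed limma's test of the mean of the clones after adjustment (adjusted p under 0.05), and 3042 (7.42%) had an unadjusted p under 0.05. This test asks whether the mean of the clones differs from the control, not whether the clones differ from each other.

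The probes of other genes that were most like these, by the smaller of the clone ratios in each direction, were well above background in the clones and in GATA1 Neg on all arrays. CD24, a lipid-anchored surface glycoprotein, had clone ratios of 1.01 in GATA1 5-13 and -1.56 in GATA1 4-14. PTN, a secreted growth factor that binds heparin, had 1.00 and -1.64 with one probe and 0.91 and -1.17 with a second. AQP3, a channel for water and glycerol, had 1.44 and -0.95, and the expressed sequence AI537201 had 1.23 and -0.93. All of these had the direction of EPB41L3. In the other direction, SEMA6D, a semaphorin of the cell membrane, had -0.996 and 2.28, and GZMA, a protease of cytotoxic granules, had -1.86 and 0.98. ZNF447, now named ZSCAN18, had -1.37 and 1.01, AK023660 had -1.06 and 1.31 and LOC642737 had -1.05 and 0.98. The array has 2 probes for SEMA6D and 3 for ZNF447, and for each gene only the 1 given here was opposite. Likeness in these 2 clones is over 4 arrays and says nothing of shared control.

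Genes of the same families and complexes were listed for comparison, 129 in all, of which 123 were on the array with 197 probes. Of these probes 1 was opposite, or 0.508%, against 0.217% of the array, and 2 had an unadjusted p of at most 0.005, both lower, against 235 lower (0.574%) and 134 higher (0.327%) over the array, by limma. None passed after adjustment. GATA1 Neg was well above background on all 4 arrays for 132 of the 197 probes, against 24511 of 40974 over the array. The opposite one was GPC3, a proteoglycan of the same family as GPC6, in the other direction from GPC6. Its probe A_24_P57631 had log2 ratios of 0.79 and 0.80 in GATA1 5-13 and of -0.59 and -0.66 in GATA1 4-14, all RNAs well above background. GPC4, another member of that family, had 0.11 and 0.31, and the 11 probes of 9 glypican and syndecan genes had medians of 0.11 and 0.01.

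The histone chaperones around NAP1L3 and SET had 0 opposite probes of 37 from 25 genes, with medians of 0.07 and 0.09. Of the close relatives of NAP1L3, named here after their values were seen, NAP1L2 had -0.24 in GATA1 5-13 and 1.73 in GATA1 4-14. Its RNA was not well above background in GATA1 5-13, and was above it on 1 of 2 arrays in GATA1 Neg for each clone. NAP1L1 had -0.10 and 0.38 and NAP1L4 had -0.33 and 0.11, while the probes of NAP1L5 had 0.32 and -0.08, and 0.23 and -0.09. All 5 probes had opposite signs on the 4 arrays, below 0.5 in at least 1 clone. Over the whole list 10 of 37 probes had such signs, against 15.9% of the array.

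The families of the other members held no opposite probe. The polycomb list had 0 of 42 probes from 24 genes, the calcium channel list 0 of 29 from 19, the catenin and cadherin list 0 of 36 from 22, the relatives of EPB41L3 0 of 24 from 13, and the spondin list 0 of 18 from 11. The medians of these lists lay between -0.04 and 0.05 in both clones. In the spondin list, MDGA1, a lipid-anchored protein of the cell surface, had values below the control in both clones with both probes, at -1.08 and -0.90, and at -1.11 and -0.94. These were the 2 probes past the unadjusted p of 0.005. RELN, a large secreted matrix protein of the same list, had 1.85 and 0.53.

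Whether genes beside the members on the chromosome differed alike was read from all probes under other gene names within 500 kb, by hg18 positions. There were 198 such probes of 156 gene names, and 0 of them were opposite, against 0.217% of the array. THC2577727, with clone means of -0.11 and -0.18, lies between the 2 probes of SET. A name counted here therefore need not be a separate gene. GATA1 Neg was well above background on all 4 arrays for 121 of the 198, against 24511 of 40974 over the array. By member this ranged from 1 of 3 probes near NAP1L3 to 28 of 38 near ITPR3. The offset pulls the ratios of dim probes towards 0, which limits the counts, medians and ranges given here. Distance was taken from the probes of a member, and the neighbours of GPC6 and of CTNND2 all lay to a single side of these. Opposite signs on all 4 arrays, at any size, were found in 29 of the 198, against 15.9% of the array. The medians over the neighbours were -0.01 in both clones. Around EPB41L3 8 genes with 9 probes ranged from -0.38 to 0.04 in GATA1 5-13 and from -0.08 to 0.16 in GATA1 4-14, and around SPON1 5 genes ranged from -0.08 to 0.12 and from -0.13 to 0.08. The 5 genes beside GPC6 ranged from -0.28 to 0.43 and from -0.24 to 0.07, and the 2 genes near NAP1L3 from -0.13 to 0.22 and from 0.21 to 0.31. EPB41L3, SPON1, GPC6 and NAP1L3 themselves lay outside these ranges in both clones. The members were chosen on these ratios, so nothing is read from where they lie against their neighbours. The neighbours of CR615016 ranged from -0.51 to 1.24 in GATA1 5-13 and from -0.28 to 1.00 in GATA1 4-14, and CR615016 lay outside both. At the remaining 4 genes the member lay within the range of its neighbours in GATA1 5-13, which was -1.10 to 0.55 around SET, -0.86 to 0.05 around PHC2, -1.08 to 0.24 around ITPR3 and -0.64 to 0.19 around CTNND2. In GATA1 4-14 the neighbours ranged from -0.25 to 0.18 around SET, from -0.37 to 0.25 around PHC2, from -0.29 to 0.22 around ITPR3 and from -0.18 to 0.05 around CTNND2. The values of SET (first probe), PHC2 (first probe), ITPR3 and CTNND2 lay above these, and the other probes of SET and PHC2 lay within them.

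In all, 16 neighbouring probes of 198 were at least 0.5 in size in GATA1 5-13, against 5.91% of the array, and 1 of them also in GATA1 4-14, against 1.24%. That probe was for HOXC9, a homeobox gene 129.7 kb from CR615016, with 1.18 and 1.00, so it was higher in both clones where CR615016 was not. HOXC8, 120 kb from CR615016, had 1.24 and -0.05 with a probe that was measured in all RNAs. Near SET, SPTAN1, a spectrin, had -1.10 and -0.21 at 59.46 kb. Near PHC2, 3 probes of S100PBP had -0.86 and -0.22, -0.73 and -0.15, and -0.66 and -0.10. These were named after their values were seen.

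**Figure D4:**
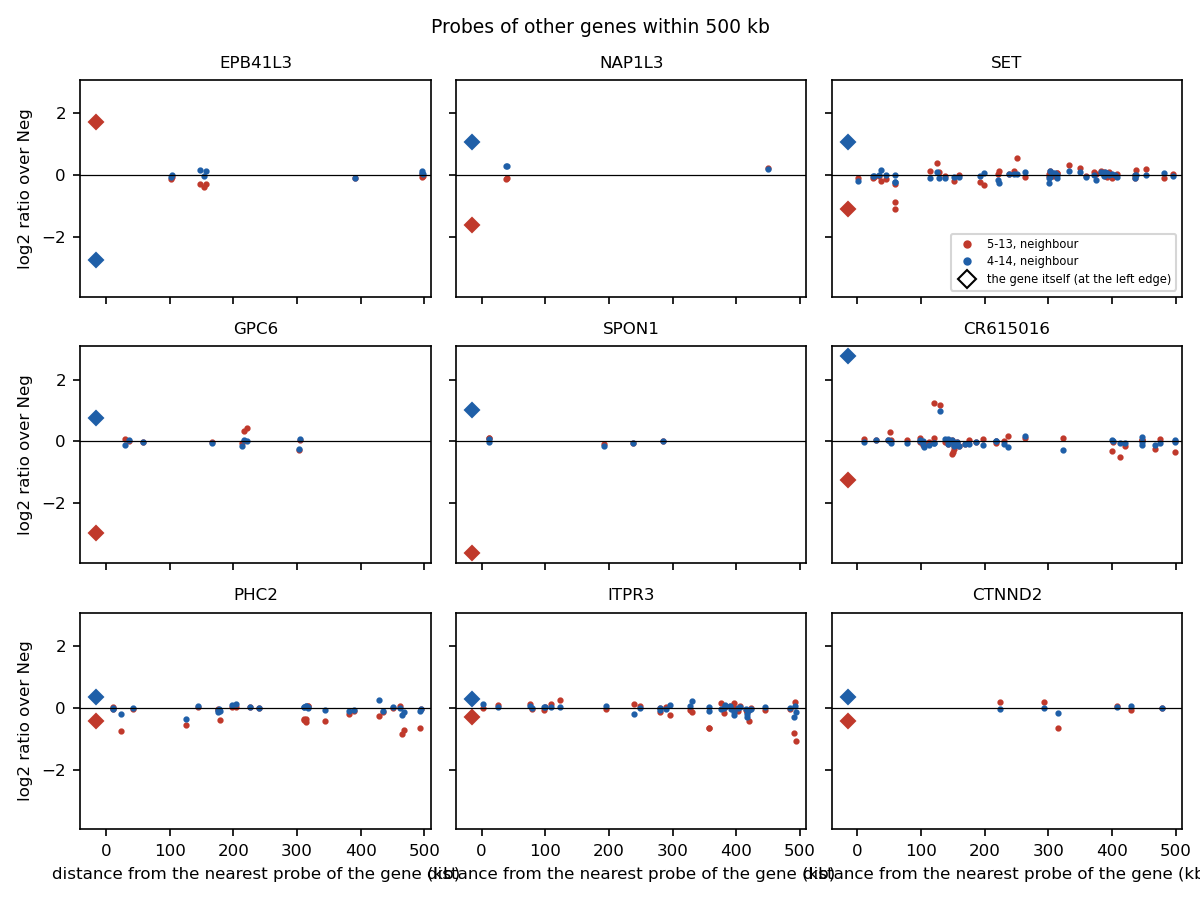
Log2 ratio over GATA1 Neg (vertical axis) of probes under other gene names, with GATA1 5-13 in red and GATA1 4-14 in blue. The horizontal axis is their distance in kb from the nearest probe of each of the 9 genes, up to 500 kb. Diamonds at the left edge show the first listed probe of the gene itself. The neighbours lie near 0, apart from points such as HOXC8 and HOXC9 near CR615016 and SPTAN1 near SET, and none is opposite by the rule of 0.5 in both clones.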

How the data were processed

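RNA of each clone was measured against GATA1 Neg on 2 Agilent arrays with swapped dyes, all on 1 slide. The authors deposited the output of Agilent Feature Extraction 9.5.3.1, with spot and local background intensities in both channels, not yet corrected or normalized, and probe positions on hg18. The deposited log10 ratio of each spot is that program's own, from background-subtracted, dye-normalized signals with surrogates for low signals. The series-wide table of deposited values repeats these log10 ratios with the clone over the control on each array, within 4.97e-06. The combination of arrays that the authors made with Rosetta Resolver was not used here.

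From the intensities, log2 ratios were made with limma 3.58.1 in R 4.3.3 (with version 1.17.8 of its data.table package): normexp with an offset of 50, loess within each array, spots of a probe averaged, signs turned to clone over control, and the 2 arrays of a clone averaged. Control spots were left out of the loess fit and of the averages, but not of the background correction. Spots marked as outliers were left out only when ratios and channel levels were averaged. Channel levels also had Aquantile scaling between arrays. An offset pulls the ratios of dim spots towards 0. A clone is 1 replicate, so clones were not tested against each other. The limma test of their mean against 0 was adjusted by Benjamini-Hochberg over 40974 probes. It was also run on simulated data, from which nothing is read here. "At least" folds set the brighter RNA against the lowest signal well above background, or the dim probe's own if higher, with each array's values as log2 levels, and are open to dye bias. Precision is limited by the number of arrays; how much GATA1 Neg varies between cultures was not measured.

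The members and lists were chosen with earlier results of these data known. Beside members, GATA1 and the markers, the genes named were the 5 probes nearest in likeness in each direction and listed relatives past a threshold. GPC4 was past none, and the rest, AF339813 among them, were named after their values were seen. RefSeq names matched 8 of 9 members by accession, all under the same symbol. No annotation of hg18 was used here, so exons and UTRs of the probes are not given. Promoter windows came from RefSeq on GRCh38.p14. Alternatives were the background correction, the log ratio of Feature Extraction, the series table, median centring, Aquantile scaling, dim probes left out, outliers retained, the size that counts as opposite, no demand on the dye orientations, each array left out, and for the test a replicate block and an intensity trend.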

Additional observations from a re-analysis of the deposited data

Results flagged for a closer look

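A probe is given here where all arrays of one clone lay above GATA1 Neg and all arrays of the other clone lay below it. The value is the log2 ratio in GATA1 5-13 minus that in GATA1 4-14, each clone is 1 replicate, and none of the differences was tested. Over the array 6512 probes (15.9%) had this pattern at any size, and the members were chosen for it.

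With GATA1 5-13 higher, the difference was 4.47 for EPB41L3, 2.57 for CD24, 2.64 and 2.09 for the probes of PTN, 2.38 for AQP3, 2.16 for AI537201, 1.41 for GPC3, 1.29 for HOXC8, and 0.40 and 0.32 for NAP1L5.

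With GATA1 4-14 higher, the difference was -4.62 for SPON1, -4.02 for CR615016, -3.70 and -1.43 for GPC6, -2.68 for NAP1L3, -2.16 for the first SET probe, -0.79 and -0.65 for the 2 probes of PHC2 that were above background, -0.76 and -0.45 for CTNND2 and -0.56 for ITPR3. Among other genes it was -3.27 for the opposite probe of SEMA6D, -2.85 for GZMA and -2.38 for the opposite probe of ZNF447. It was -2.38 for AK023660, -2.03 for LOC642737, -1.97 for NAP1L2, -0.48 for NAP1L1 and -0.44 for NAP1L4. AF339813, a cDNA on the same chromosome as GPC6, had -0.998, with no RNA of GATA1 5-13 or of its GATA1 Neg partner well above background.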

How the results depend on the processing

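The number of opposite probes on the array, 89, was 31 without background correction, 191 with an offset of 0, 293 with the log ratios of Feature Extraction or the series table, 424 with 0.25 and 8 with 1 as the size asked, and 89 to 99 with an array left out. Of the 14 member probes, 7 were opposite; the other settings gave 5 to 10, and 7 with any array left out. Without background correction the second GPC6 probe and CR615016 were the ones no longer opposite; with an offset of 0 or the Feature Extraction ratios a CTNND2 probe was added. Opposite signs were found in 12 member probes, and in 11 to 13 under the alternatives. The median distance between the clones over member probes, 1.11, was 0.53 without background correction, 1.83 with an offset of 0, 2.32 with either set of Feature Extraction ratios, 1.80 over the 12 probes left when dim ones were dropped, 1.11 with a replicate block, and 1.07 to 1.18 with an array left out. Of the related genes' probes, 1 was opposite: 0 without background correction or at a size of 1, 5 with either set of Feature Extraction ratios and 3 at 0.25. The neighbours gave 0 opposite probes in each of the settings tried.

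Probes called by limma on the clone mean, 0, were 1 with an offset of 0, 1 without dim probes, 1 with an intensity trend and 0 to 1 with an array left out. With the 4 arrays as 4 values there were 1240 without and 269 with a replicate block; these take the 2 arrays of a clone as replicates, which the labels do not settle. Arrays of the same number share a dye orientation and deviated together (correlation 0.773), in 2 pairs. Of 498 values of single probes, 359 moved by less than the spread between arrays and 139 by more. Leaving out an array cannot move a value past this spread, and Aquantile scaling or dropping dim probes leaves the ratios unchanged. Of 42 values, 7 moved by less without background correction and 34 with median centring. With an offset of 0, the Feature Extraction ratios or the series table, 10 did. Over all settings 12 values changed sign, all for the second SET probe and the dim PHC2 probe. The values of dim RNAs depended most on the background: EPB41L3 in GATA1 4-14 ranged from -4.59 to -1.39. The cause was not tested where none is given.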
